A study of Homo sapiens with 8 samples.

Results

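The subject is the response of LNCaP cells to an siRNA against TET2, read as the array labelled LNCaP_siTET2 minus the array labelled LNCaP_siControl. These are 2 of the 8 arrays of the series. LNCaP is an established, androgen-responsive prostate cancer line. Both dishes were kept in RPMI medium containing 10% fetal bovine serum and were transfected 72 hours before the RNA was taken, one dish with siTET2 and the other with a control siRNA. LNCaP cells given a negative control miRNA (nc) served as a second reference, LNCaP cells given miR-29b as the last array of the line, and the corresponding arrays of DU145, an established androgen-independent prostate cancer line, as an outside comparison. Each construct was measured on 1 array per line, so there is no replicate, and every value is given without an error or a p-value. The labels name 1 siTET2 construct and do not give its sequence, or whether it was a single siRNA or a pool. Effects of losing TET2 and other effects of this construct therefore cannot be told apart.

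TET2 is one of 3 TET dioxygenases, which oxidise 5-methylcytosine in DNA to 5-hydroxymethylcytosine and further products that base excision repair can replace with unmethylated cytosine. It is known as a regulator of methylation at enhancers and gene bodies, and its transcript is a known target of miR-29. Genes of cell division, which carry much of what follows, are transcribed in waves. E2F factors switch on replication genes at the start of S phase, and the factors NF-Y, B-MYB and FOXM1 switch on mitotic genes later, through CCAAT boxes and an element called the cell cycle homology region. In cells that leave the cycle, p53 and its target CDKN1A help to shut both waves down.

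Of 33297 probe sets on the array, 19460 carried 1 gene symbol, and these stood for 18417 genes. A gene was counted where it reached the array's median over genes in at least 1 of the arrays compared (the level floor, 7.67 with siTET2 and 7.63 with siControl on the log2 scale). The floor left 9422 genes, 8996 of them above it in both arrays. The label of the cells held in all 4 LNCaP arrays. Of 11 LNCaP markers measured, 10 (with miR-29b) or 11 (in the other arrays) lay at or above the array's median, against 1 of 13 DU145 markers (EGFR), 0 of 13 immune cell markers and 1 of 10 fibroblast markers (COL1A1). The medians over all probe sets lay between 7.10 and 7.17 in the LNCaP arrays.

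TET2, the gene addressed by the siRNA, had a log2 level of 9.01 with siControl, 9.24 with nc, 8.59 with miR-29b and 7.89 with siTET2. The siTET2 array was thus the lowest of the 4, by 2.17-fold from siControl, and by a log2 difference of -1.35 from nc. A second TET2 probe set gave 8.76 with siControl, 8.76 with nc, 8.42 with miR-29b and 7.92 with siTET2. Both probe sets placed siTET2 below every other LNCaP array. TET3, the other TET enzyme above the floor, was 8.40 with siControl, 8.51 with nc and 8.15 with siTET2, and its lowest value was that with miR-29b (7.88). TET1 lay below the floor throughout, at 6.17 with siControl and 6.30 with siTET2. The genes beside TET2 on chromosome 4 did not share its difference. Its neighbours PPA2 (-0.25) and CXXC4 (-0.10, below the floor) differed little from siControl, and of the 16 nearest genes measured only the mitotic motor gene CENPE, described further down, was past 1.5-fold. These neighbours were looked up outside the rule for named genes.

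Among enzymes that act before or after TET2 in the turnover of DNA methylation, NEIL3 (-0.66) and HELLS (-0.73) were at least 1.5-fold below siControl and the rest differed by less. Of 17 base excision partners above the floor, 8 were below 0 and 9 above, with a median log2 difference of 0.02, beside 0.01 over all 9422 genes. TDG, the glycosylase that removes oxidised cytosines, was 8.57 with siControl, 8.13 with nc and 8.33 with siTET2, between the controls. NEIL3, a glycosylase made in dividing cells, was 9.83 with siControl, 9.49 with nc and 9.17 with siTET2. GADD45A, a p53 target with a proposed part in demethylation, was 7.52 with siControl, 7.33 with nc and 7.94 with siTET2. It passed the floor only through its siTET2 value. Of 11 methyltransferases and readers, 6 were below 0 and 5 above, with a median of -0.04. HELLS (8.88 with siControl, 8.56 with nc, 8.15 with siTET2), a remodeller needed for methylation in replicating chromatin, DNMT1 (10.48, 10.37 and 10.05), the maintenance methyltransferase, and UHRF1 (9.65, 9.69 and 9.29), which guides DNMT1 to replicated DNA, were all lowest with siTET2. DNMT3A, which methylates new sites, was 7.76 with siControl, 7.97 with nc and 8.03 with siTET2.

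Across all genes the differences were small and uneven. Of the 9422 genes, 80.2% lay within 0.25 of siControl on the log2 scale, and the interquartile range ran from -0.11 to 0.13. At least 2-fold higher than siControl were 5 genes (0.0531% of those tested) and at least 2-fold lower were 9 (0.0955%). At 1.5-fold there were 36 higher (0.382%) and 223 lower (2.37%). Lower genes outnumbered higher ones in this pair of arrays. Against nc, with its own floor over 9490 genes, 9 genes (0.0948%) were 2-fold higher with siTET2 and 4 (0.0421%) lower. At 1.5-fold these shares were 1.22% higher and 0.506% lower. The control arrays themselves differed by 1.5-fold in 171 genes higher (1.79%) and 49 lower (0.514%) with siControl than with nc, over 9540 genes. These comparisons share arrays. A stricter reading therefore asked that siTET2 lie beyond both controls by at least 1.5-fold, which 17 genes did upward (0.177% of 9623) and 30 downward (0.312%). The same rule applied to the miR-29b array of LNCaP gave 16 upward (0.166% of 9614) and 8 downward (0.0832%).

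**Figure D1:**
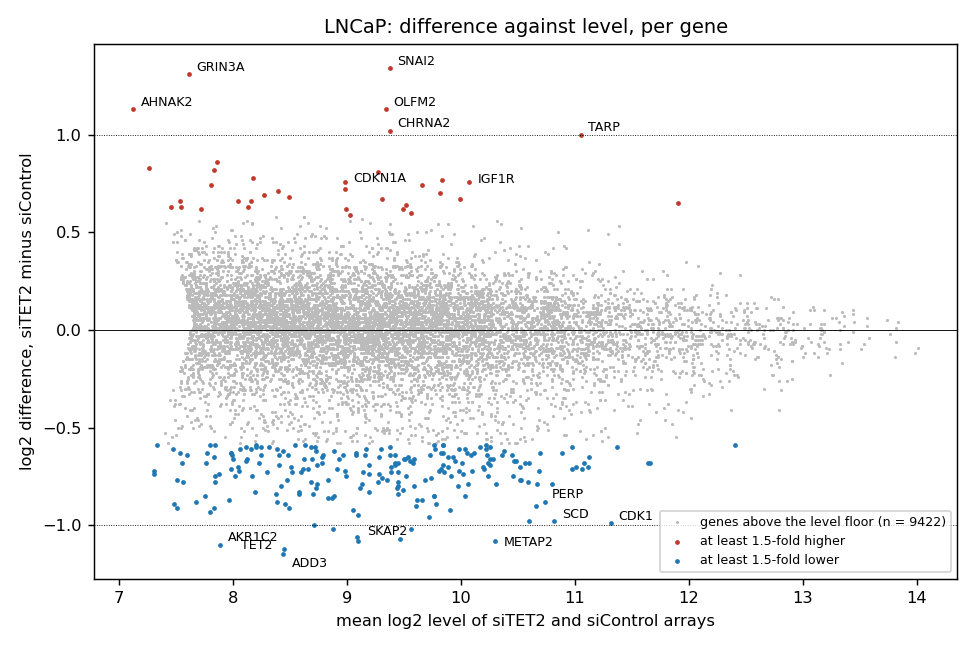
Each point is 1 of 9422 genes above the level floor in LNCaP; the horizontal axis is the mean log2 level of the siTET2 and siControl arrays, the vertical axis the log2 difference siTET2 minus siControl, and dotted lines mark 2-fold. The 223 genes at least 1.5-fold lower (blue) outnumber the 36 at least 1.5-fold higher (red), and SNAI2 (1.34) and ADD3 (-1.15) are the extremes.

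The genes higher than both controls were led by SNAI2, the Slug repressor of epithelial genes. Its log2 level was 8.71 with siControl, 8.69 with nc, 8.50 with miR-29b and 10.05 with siTET2, which is 2.53-fold above siControl. The 3 other arrays lay within a narrow band and siTET2 stood alone above it. GRIN3A, a subunit of NMDA glutamate receptors, was 6.96 with siControl, 6.88 with nc, 6.21 with miR-29b and 8.27 with siTET2 (2.48-fold above siControl), so that it passed the floor only through its siTET2 value. AHNAK2, a large scaffold protein, passed in the same way, with 6.56 with siControl, 6.63 with nc, 6.78 with miR-29b and 7.69 with siTET2.

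TARP, a transcript of the T cell receptor gamma locus that prostate cells are known to make, was 10.55 with siControl, 10.11 with nc, 9.88 with miR-29b and 11.55 with siTET2. Another TARP probe set repeats these values and one of low level gave a difference of 0.04 (5.49 with siControl). CHRNA2, a nicotinic acetylcholine receptor subunit, was 8.87 with siControl, 8.76 with miR-29b and 9.89 with siTET2, which lay 0.88 above nc. For these genes too the siTET2 array was the highest of the 4. The glucose transporter gene SLC2A12 was 8.87 with siControl, 8.70 with nc and 9.68 with siTET2. IGF1R, the receptor of insulin-like growth factor 1, was 9.69, 9.73 and 10.45 in the same order, and its second probe set gave a difference of 0.94 from siControl and 0.76 from nc. ZPLD1 (0.86 from siControl, 0.93 from nc), AFF3 (0.68 and 0.74), PCTP, a carrier of phosphatidylcholine (0.64 and 0.89), the ephrin receptor EPHA7 (0.63 and 0.77), CD274, the immune checkpoint ligand (0.66 and 0.85), and the serine protease PRSS8 (0.67 and 0.60) were further genes beyond both controls. ZPLD1 and CD274, like GRIN3A and AHNAK2, passed the floor only through their siTET2 values. YPEL5 (0.62 and 0.61) lay at nearly the same distance from either control.

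Among the 20 highest against siControl, several were much nearer to nc. OLFM2, a secreted olfactomedin-domain protein, was 8.78 with siControl, 9.46 with nc and 9.91 with siTET2. PCDHB2, a protocadherin, was 8.60, 9.16 and 9.36. APOD, a lipid-binding secreted protein, was 9.45, 9.81 and 10.22, and TNFRSF19, a receptor of the TNF family, was 7.93, 8.33 and 8.62. In these 4 genes siControl was the lowest of the 3 arrays. The interferon-induced chemokine CXCL10 was 7.42 with siControl, 7.86 with nc and 8.24 with siTET2, but highest with miR-29b (9.08). GABBR1, a GABA receptor subunit, had 3 probe sets with differences of 0.53, 0.66 and 0.78 from siControl and 0.50, 0.51 and 0.56 from nc.

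On the lower side, the genes below both controls were led, after TET2 itself, by AKR1C2, which reduces dihydrotestosterone to a weak androgen. Its level was 8.44 with siControl, 8.66 with nc, 8.91 with miR-29b and 7.34 with siTET2, 2.15-fold below siControl. Its near-identical paralogs could share probes with it, so the value may hold other AKR1C transcripts. LHFPL2, a tetraspan membrane protein, was 8.29 with siControl, 8.33 with nc, 8.46 with miR-29b and 7.38 with siTET2. PRR11, a gene made in dividing cells, was 10.20, 10.14, 10.12 and 9.24 in the same order. In each of these the siTET2 array stood apart below the 3 others. The siTET2 values of AKR1C2 and LHFPL2 lay below the floor of that array (7.67).

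PERP, a desmosome protein also known as a p53 target, was 11.18 with siControl, 11.31 with nc, 11.35 with miR-29b and 10.29 with siTET2. SCD, the desaturase that makes monounsaturated fatty acids, was 11.31, 11.15, 11.09 and 10.33. TMEM19, a membrane protein, was 9.52, 9.56, 9.62 and 8.71. These 3 transcripts were lower with siTET2 by similar amounts from either control. ADD3, a membrane skeleton protein and the lowest gene against siControl, was 9.01, 8.67, 9.11 and 7.86, a difference of -1.15 from siControl and -0.81 from nc. The adaptor gene SKAP2 (9.64, 9.25, 9.64 and 8.56), the deubiquitinase gene OTUD6B (10.36, 10.11, 10.16 and 9.44) and METAP2 (10.84, 10.38, 10.61 and 9.76), which trims the first methionine of new proteins, were lowest with siTET2 as well. MTPN, which binds actin capping protein, was 11.31 with siTET2 and 11.98 with miR-29b, and lay -0.68 from siControl and -0.69 from nc. The transcription factor gene NFIA (-0.80 from siControl, -0.68 from nc) and the deubiquitinase gene USP46 (-0.66 and -0.79) were also below both, as were 3 genes of cell division, FOXM1 (-0.71 and -0.72), DEPDC1B (-0.76 and -0.78) and SPAG5 (-0.79 and -0.69).

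In other genes of the lowest 20 siControl lay well above nc, so that siTET2 was nearer to nc than to siControl. UGT2B17, which glucuronidates androgens, was 9.62 with siControl, 8.28 with nc, 8.76 with miR-29b and 8.56 with siTET2, so that it lay below siControl and above nc. CCDC59 was 10.00, 9.05, 9.25 and 8.93, and ERLIN1, a protein of the endoplasmic reticulum membrane, was 10.08, 9.30, 9.86 and 9.05. PARPBP, which restrains recombination, was 9.39, 8.74, 9.04 and 8.37. In these 4 genes siControl was the highest array, and in CCDC59 siTET2 differed from nc by -0.12. SLC7A11, the cystine transporter, was 11.09 with siControl, 10.50 with nc, 11.24 with miR-29b and 10.11 with siTET2.

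**Figure D2:**
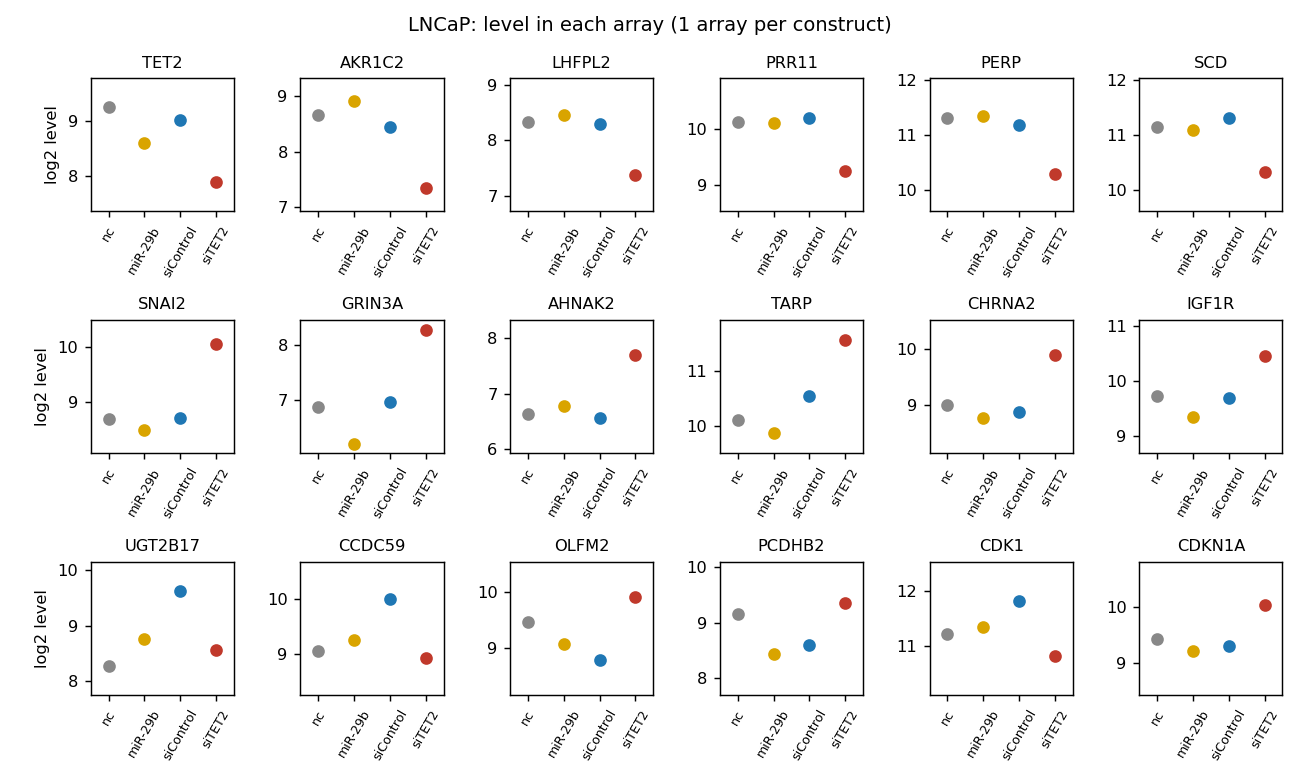
Log2 level of 18 genes in the 4 LNCaP arrays, 1 array per construct and 1 panel per gene, with the same span on each vertical axis. In the upper row siTET2 lies below the other 3 arrays and in the middle row above them; in the lower row UGT2B17 and CCDC59 are highest with siControl (9.62 and 10.00), and OLFM2 is lowest there (8.78).

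Genes of cell division were lower as a group. All 61 kinetochore, spindle and cytokinesis genes above the floor (of 63 measured) were below siControl, beside 46.9% of all genes, with a median difference of -0.69 and a range from -0.95 to -0.06. At least 1.5-fold lower were 41 of them, beside 2.37% of all genes. CENPH passed the floor through siControl and not siTET2, so its place below siControl was fixed by the floor. With no level floor the median was -0.68. The siTET2 array was the lowest of the 4 LNCaP arrays in 58 of 61 (22.6% of all genes), the exceptions being CENPH, CENPN and KIF20B. CENPE, a kinetochore motor, was 9.57 with siControl, 8.83 with nc, 8.96 with miR-29b and 8.63 with siTET2. ECT2, which places the cleavage furrow, was 11.11, 10.46, 10.82 and 10.21. ASPM, a spindle pole protein, was 8.83, 8.39, 8.64 and 7.95. In these genes siControl was highest and nc second lowest. The median of the list was -0.32 against nc, as siControl itself was 0.33 above nc. SPAG5, a spindle protein, was unlike them, with 10.46 with siControl, 10.35 with nc, 10.62 with miR-29b and 9.67 with siTET2. It was, with DEPDC1B and KIFC1, 1 of 3 members at least 1.5-fold below both controls (0.312% of all genes).

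Mitotic kinases, cyclins and partners of the anaphase promoting complex followed the same order. All 33 were below siControl (46.9% of all genes), with a median of -0.58 (-0.38 against nc). The siTET2 array was the lowest in 31 (22.6% of all genes). CDK1, the kinase that starts mitosis, was 11.81 with siControl, 11.22 with nc, 11.35 with miR-29b and 10.82 with siTET2. FOXM1, the transcription factor of the mitotic wave, was 10.56, 10.56, 10.81 and 9.84, so that both controls coincided and siTET2 lay -0.71 and -0.72 from them. MKI67, the proliferation antigen Ki-67, was 10.28, 10.09, 10.31 and 9.54. ESPL1, the protease that releases sister chromatids, was 8.66, 8.59, 8.74 and 7.94, and PLK4, which starts centriole duplication, was 9.61, 8.98, 9.39 and 8.78. FOXM1, ESPL1, PLK1 and MYBL2 were the 4 members at least 1.5-fold below both controls (0.312% of all genes).

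Replication genes were lower too. All 54 origin and fork genes above the floor were below siControl (46.9% of all genes), with a median of -0.50 (-0.28 against nc). The siTET2 array was the lowest in 49 (22.6% of all genes). The 5 exceptions were the origin recognition genes ORC2, ORC3, ORC4 and ORC5 and the primase gene PRIM2. MCM10, which helps to start the replicative helicase, was 10.05 with siControl, 9.84 with nc, 9.83 with miR-29b and 9.18 with siTET2. GINS1, a subunit of that helicase, was 11.19, 11.02, 10.96 and 10.40. These were the 2 members at least 1.5-fold below both controls (0.312% of all genes). POLE2, a subunit of polymerase epsilon, was 9.53, 8.95, 9.28 and 8.74, much closer to nc. Of 17 genes of deoxynucleotide synthesis, 16 were below siControl (46.9% of all genes), with a median of -0.30. TK1, thymidine kinase, was 10.69 with siControl, 10.86 with nc and 10.12 with siTET2, and TYMS, thymidylate synthase, was 11.45, 11.21 and 10.80.

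Clustered histone genes, whose mRNAs are made with replicating DNA, had a median of -0.39 over 34 members above the floor of 49 measured (-0.26 against nc). Of these, 32 were below siControl and siTET2 was the lowest array in 27, beside 46.9% and 22.6% of all genes. H2AC14 and H2AC12 passed the floor through siControl and not siTET2, so their place below siControl was fixed by the floor. With no level floor the median was -0.31. H3C10 was 11.42 with siControl, 11.36 with nc, 11.15 with miR-29b and 10.74 with siTET2. It was the 1 member at least 1.5-fold below both controls (0.312% of all genes). H2AC4 was 8.99, 8.63, 8.65 and 8.16, and H2BC7 was 11.05, 10.46, 10.56 and 10.32. These genes are near-identical copies, so their probe sets may read one another. Homologous recombination and Fanconi genes had a median of -0.51 over 35, with 30 below siControl (46.9% of all genes), but -0.18 against nc. With no level floor their median from siControl was -0.40. FANCB passed the floor through siControl and not siTET2, so its place below siControl was fixed as well. BRCA1 was 9.21 with siControl, 8.69 with nc, 9.03 with miR-29b and 8.21 with siTET2. POLQ, the polymerase of end joining by microhomology, was 8.99, 8.67, 9.04 and 8.16. In the bulk RNA of a dish, fewer dividing cells and less of these mRNAs per dividing cell cannot be told apart.

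**Figure D3:**
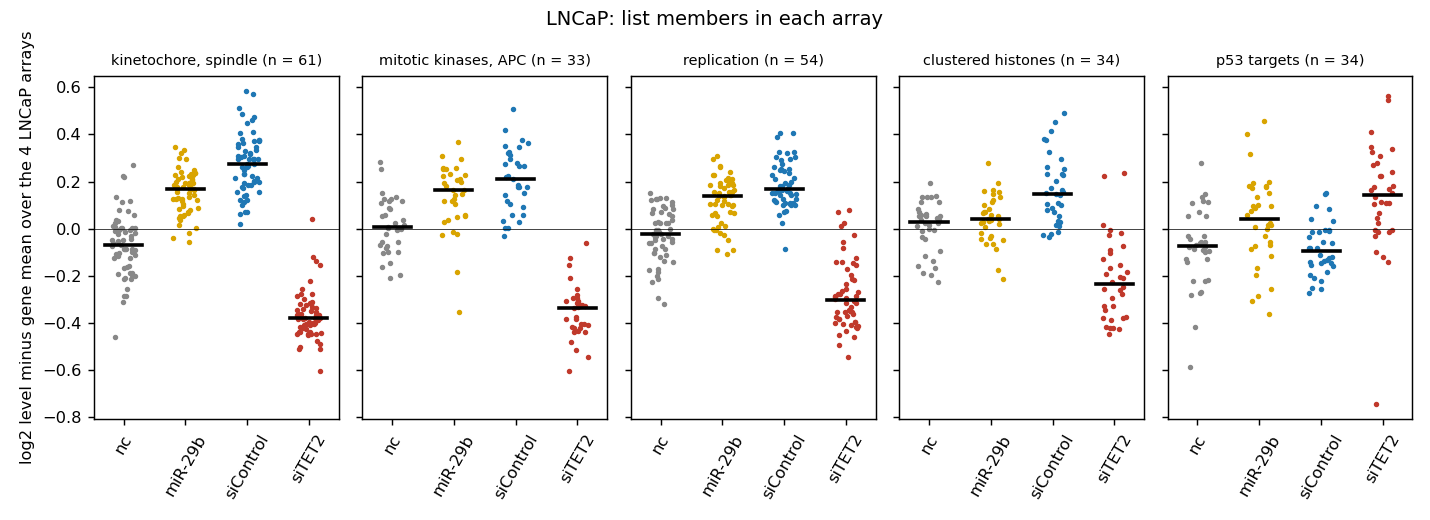
Level of each list member in each LNCaP array as the log2 distance from the gene's own mean over the 4 arrays, for members above the floor; black bars are medians over members. In the kinetochore and spindle list the medians are -0.07 with nc, 0.17 with miR-29b, 0.28 with siControl and -0.38 with siTET2, and in the p53 target list the siTET2 median (0.14) is the highest.

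The promoters of these genes are shown because the lists that were lower together held these elements in different shares. For each gene the sequence runs over the 200 bases before its most upstream RefSeq start (build GRCh38.p14), read 5′ to 3′ on the gene's strand. The following 5 genes are low members of the mitotic lists with a TTTGAA match, and not a ranking of every member. Capitals mark the cell cycle homology region letters TTTGAA and the CCAAT box letters CCAAT, each on either strand. In MKI67 one of each overlap.
CDK1, chr10:60778131-60778330, plus strand: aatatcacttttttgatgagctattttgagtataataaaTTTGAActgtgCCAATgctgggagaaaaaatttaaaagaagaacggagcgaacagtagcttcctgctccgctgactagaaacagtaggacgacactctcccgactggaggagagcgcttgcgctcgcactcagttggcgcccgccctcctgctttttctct
ECT2, chr3:172750526-172750725, plus strand: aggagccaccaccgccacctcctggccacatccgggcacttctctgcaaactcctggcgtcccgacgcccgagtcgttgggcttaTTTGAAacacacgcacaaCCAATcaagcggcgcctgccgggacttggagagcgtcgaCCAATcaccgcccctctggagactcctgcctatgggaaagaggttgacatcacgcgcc
ASPM, chr1:197146670-197146869, minus strand: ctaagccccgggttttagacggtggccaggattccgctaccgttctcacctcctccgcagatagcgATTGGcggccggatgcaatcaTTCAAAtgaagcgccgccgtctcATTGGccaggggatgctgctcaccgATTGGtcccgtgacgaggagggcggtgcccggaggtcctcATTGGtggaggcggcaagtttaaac
DLGAP5, chr14:55191586-55191785, minus strand: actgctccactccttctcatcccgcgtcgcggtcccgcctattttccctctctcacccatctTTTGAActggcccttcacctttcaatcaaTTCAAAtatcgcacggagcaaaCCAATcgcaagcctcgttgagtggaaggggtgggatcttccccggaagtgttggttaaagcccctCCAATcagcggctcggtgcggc
MKI67, chr10:128126424-128126623, minus strand: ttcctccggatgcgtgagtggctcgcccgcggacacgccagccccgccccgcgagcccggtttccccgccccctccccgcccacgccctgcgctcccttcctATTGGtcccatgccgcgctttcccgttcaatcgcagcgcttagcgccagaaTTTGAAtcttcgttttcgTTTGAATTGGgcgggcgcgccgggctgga

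E2F letters were more frequent in replication promoters, which held CCAAT boxes as well. The next 3 genes are low members of the origin and fork list with E2F letters, and again not a ranking of every member. Capitals mark TTTGGCGC, TTTCCCGC, TTTGCCGC or TTTCGCGC on either strand, alone or overlapping, and CCAAT boxes. The longer runs of capitals in MCM6 are E2F letters that overlap on opposite strands. POLA2 was -0.69 from siControl, MCM6 -0.66 and POLA1 -0.62.
POLA2, chr11:65261762-65261961, plus strand: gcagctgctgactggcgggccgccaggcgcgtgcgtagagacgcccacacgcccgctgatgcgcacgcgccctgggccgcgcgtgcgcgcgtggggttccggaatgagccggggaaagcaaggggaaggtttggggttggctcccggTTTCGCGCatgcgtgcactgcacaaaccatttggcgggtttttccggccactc
MCM6, chr2:135876444-135876643, minus strand: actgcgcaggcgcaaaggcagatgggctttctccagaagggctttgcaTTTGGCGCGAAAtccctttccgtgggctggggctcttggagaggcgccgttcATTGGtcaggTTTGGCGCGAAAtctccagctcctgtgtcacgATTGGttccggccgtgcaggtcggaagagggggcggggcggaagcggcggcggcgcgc
POLA1, chrX:24693718-24693917, plus strand: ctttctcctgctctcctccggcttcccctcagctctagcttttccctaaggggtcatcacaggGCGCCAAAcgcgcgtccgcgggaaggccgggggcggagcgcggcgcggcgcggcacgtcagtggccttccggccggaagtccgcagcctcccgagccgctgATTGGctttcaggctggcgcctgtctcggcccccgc

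Motif matches were counted over the 300-base windows (250 before and 50 after the start) that RefSeq gave for 7760 of the 9422 genes. TTTGAA occurred in 35 of 52 kinetochore and spindle promoters (67.3%) and 17 of 29 promoters of mitotic kinases and partners (58.6%), beside 9.28% of all 7760, and in 1 of 47 origin and fork promoters (2.13%). E2F letters stood in 20 of 47 origin and fork promoters (42.6%) and 11 of 31 histone promoters (35.5%), beside 5.95% of all, and in 3 of 52 kinetochore and spindle promoters (5.77%). CCAAT boxes stood in 38 of 52 kinetochore and spindle promoters (73.1%), 17 of 29 of the mitotic kinase list (58.6%), 27 of 47 origin and fork promoters (57.4%) and 27 of 31 histone promoters (87.1%), beside 38.4% of all. Grouped by the difference itself, TTTGAA occurred in 61 of 182 genes at least 1.5-fold lower than siControl (33.5%) and 1 of 27 at least 1.5-fold higher (3.70%). Seen from the promoters, 61 of 720 genes with TTTGAA were 1.5-fold lower (8.47%), beside 1.72% of the 7040 without it, and 25 of the 667 that are outside the 3 lists of mitosis and replication (3.75%). The median difference from siControl was -0.05 with TTTGAA and 0.02 without it, whereas against nc both medians were 0.03, and 0.05 outside the lists. Such a match is a stretch of letters and was not tested as a binding site.

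**Figure D4:**
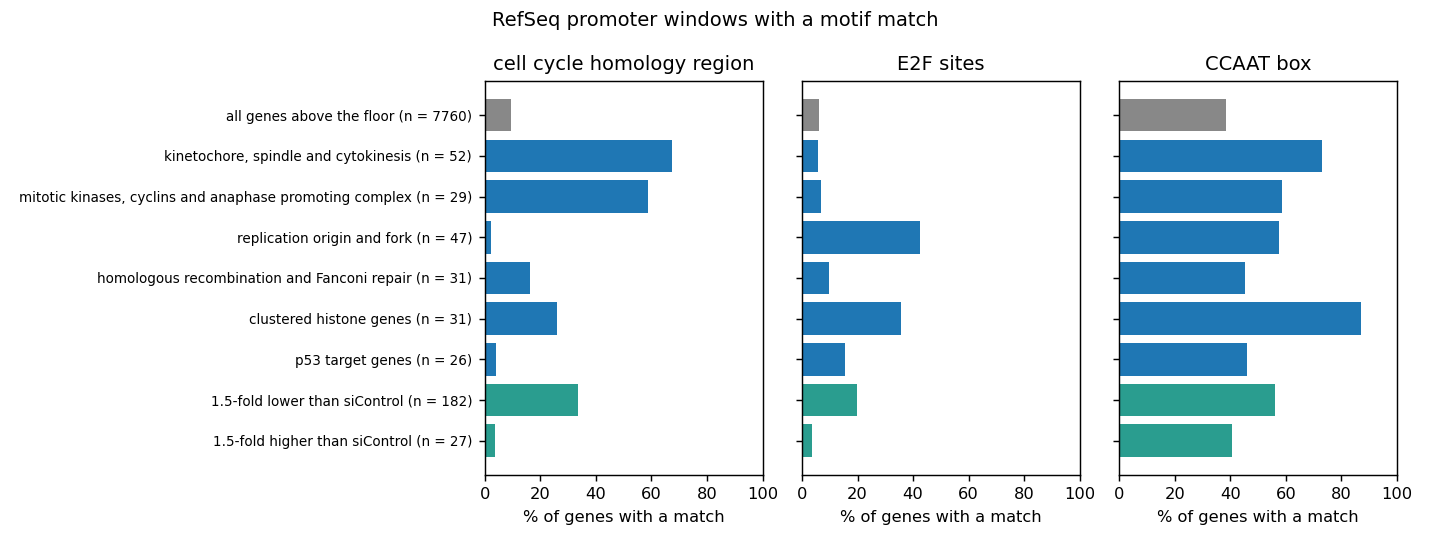
Percentage of genes whose RefSeq promoter window holds a match to the cell cycle homology region, an E2F site or a CCAAT box, by gene list (blue), by difference from siControl (green) and over all genes above the floor (grey), with the number of genes in brackets. Kinetochore and spindle genes stand at 67.3% for the first motif and 5.77% for the second, replication genes at 2.13% and 42.6%.

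Because TET2 acts on methylated CpG, the CpG content of promoters was set beside the differences, as the observed over expected ratio of CpG in the same window. The median ratio was 0.86 over all 7760 genes, 0.88 over the 182 at least 1.5-fold lower than siControl and 0.74 over the 27 at least 1.5-fold higher. In the 1940 genes poorest in CpG, 13 were 1.5-fold higher (0.670%), and 36 were lower (1.86%). In the 1940 richest, 5 were higher (0.258%) and 54 lower (2.78%). The median difference was 0.05 in the poorest set and -0.01 in the richest, and 0.04 and 0.01 against nc. Methylation itself was not measured on these arrays.

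Targets of p53 lay mostly on the other side. Of 34 p53 targets above the floor (of 37 measured), 29 were above siControl, beside 53.1% of all genes, with a median of 0.27 (0.25 against nc), and siTET2 was the highest of the 4 arrays in 18 (28.2% of all genes). LNCaP cells carry wild-type p53. CDKN1A, the p21 inhibitor of cyclin-dependent kinases, was 9.29 with siControl, 9.42 with nc, 9.20 with miR-29b and 10.03 with siTET2. ZMAT3, a p53-induced RNA-binding protein, was 8.62, 8.19, 8.96 and 9.34. These were the 2 members at least 1.5-fold above both controls. TP53INP1, a regulator of cell death and autophagy (0.53 from siControl, 0.34 from nc), and SESN1, an inhibitor of mTOR (0.49 and 0.29), were next. PERP, the lowest member at -0.88, lay on the opposite side from most of the list. BAX, which opens the mitochondrial membrane, was 9.48 with siControl, 9.90 with nc and 9.86 with siTET2, so that siTET2 stood apart from siControl only. The BCL2 family to which it belongs had a median of 0.10, which was -0.05 against nc.

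Genes known to be raised in slowly dividing cells had a median of 0.25 over 25 (0.13 against nc), and 0.24 with no level floor. Of these 25, 22 were above siControl and siTET2 was highest of the 4 arrays in 14, beside 53.1% and 28.2% of all genes. YPEL1 was 6.85 with siControl, 7.22 with nc and 7.68 with siTET2, YPEL2 was 7.71, 7.95 and 8.37, and YPEL5, of the same family of zinc-binding proteins, was 9.18, 9.19 and 9.80. PIK3IP1, an inhibitor of PI3K, was 7.41, 7.71 and 8.03. YPEL1 and PIK3IP1 passed the floor through siTET2 and not siControl, so their place above siControl was fixed by the floor. YPEL2 and TP53INP1 were known from earlier results when this list was written. Among 25 genes of G1 control the median was -0.10 (-0.19 against nc). CDKN1A was their highest, and E2F8, a repressor of the E2F wave, was lowest at 8.90 with siControl, 8.31 with nc and 8.01 with siTET2. The repressors RBL1 (-0.57 from siControl, -0.21 from nc) and E2F7 (-0.55 and -0.36) were below both controls as well. CCNE2, a cyclin of S phase entry, was 10.46, 9.93 and 9.61. SKP2, which targets the inhibitor p27 for degradation, was 11.17, 11.24 and 10.64, below both controls alike.

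Androgen response genes differed one by one. Of 41 androgen-induced genes above the floor, 25 were above siControl, with a median of 0.11 (0.15 against nc), and siTET2 was the highest array in 22, beside 53.1% and 28.2% of all genes. The share above siControl was thus near that of all genes. SNAI2, CHRNA2 and IGF1R were its 3 members 1.5-fold beyond both controls, and SNAI2 and CHRNA2 were known from earlier results when the list was written. HPGD, which degrades prostaglandins, was 9.53 with siControl, 9.38 with nc, 8.71 with miR-29b and 10.07 with siTET2. PMEPA1, a brake on TGF-beta and androgen signals, was 10.60, 10.77, 10.43 and 11.11, and the kallikrein gene KLK4 was 10.17, 10.34, 10.13 and 10.58. KLK3, which encodes prostate-specific antigen and was looked up outside the rule for named genes, differed by -0.02 from siControl and 0.11 from nc. LNCaP markers had a median of 0.11 over 11, with TMEFF2, a transmembrane protein of prostate cells, at 11.58 with siControl, 11.72 with nc and 12.23 with siTET2.

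Among 21 androgen-repressed genes the median was 0.26 (0.20 against nc), 13 of them above siControl (53.1% of all genes), with a wide range from -1.06 (UGT2B17) to 1.31 (GRIN3A). The median was 0.08 with no level floor and 0.09 with a floor at the 75th percentile. The neuronal motor gene KIF5C was 8.38 with siControl, 8.49 with nc and 8.94 with siTET2. The glucuronidating enzymes were all highest with siControl. UGT2B10 was 9.58 with siControl, 8.66 with nc and 9.07 with siTET2, UGT2B28 was 9.72, 9.13 and 9.37, and UGT2B17 is given above. In all 3 siTET2 lay between the controls, and as they are close paralogs, a probe set may read more than one of them. Steroid enzymes as a list had a median of -0.09, which was 0.24 against nc. Partner factors of the androgen receptor had a median of -0.02 over 19, with EZH2, a histone methyltransferase made in dividing cells, at 10.64 with siControl, 10.27 with nc and 10.20 with siTET2, and NCOA2, a coactivator, at 9.67, 9.66 and 9.25.

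Mesenchymal genes other than SNAI2 differed little. Of 38 mesenchymal genes measured, 13 passed the floor, with a median of 0.09 (0.07 against nc). Of these 13, 12 were above siControl, beside 53.1% of all genes, and SNAI2 was the 1 member past 1.5-fold. ACTA2, smooth muscle actin, was 7.42 with siControl, 7.53 with nc, 8.01 with miR-29b and 7.98 with siTET2, and TWIST1, another factor of the transition, was 8.42, 8.52, 8.30 and 8.72. ACTA2 passed the floor through siTET2 and not siControl, so its place above siControl was fixed by the floor. Fibronectin (FN1), looked up outside the rule, differed by -0.12. Epithelial and junction genes had a median of 0.07 over 29, which was -0.10 against nc. PERP was their lowest, DSC2, a desmosomal cadherin, was 11.44 with siControl, 11.65 with nc and 11.08 with siTET2, and KRT8, a luminal keratin, was 11.91, 11.96 and 12.24. Of 33 neuronal and neuroendocrine genes 9 passed the floor. GRIN3A, OLFM2 and CHRNA2, which led this list, were known from earlier results when it was written, and CHRNA5, another nicotinic receptor subunit, was lower (10.24 with siControl, 10.18 with nc, 9.69 with siTET2).

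Metabolic and stress genes differed less. Fatty acid genes had a median of -0.09 over 23 (-0.08 against nc), with SCD far from the rest. FADS1, a desaturase of polyunsaturated fatty acids, was 11.12 with siControl, 10.91 with nc and 10.73 with siTET2, and ACSL1, which activates fatty acids, was 11.08, 10.98 and 10.70. Cholesterol genes had a median of -0.10, which was 0.08 against nc. ATF4 and amino acid stress genes had a median of -0.18 over 29 (-0.04 against nc). Of these 29, 24 were below siControl and siTET2 was the lowest array in 20, beside 46.9% and 22.6% of all genes. SHMT2, a mitochondrial enzyme of serine metabolism, was 12.09 with siControl, 12.09 with nc, 12.28 with miR-29b and 11.61 with siTET2, below both controls by the same -0.48. SESN2, a stress-induced inhibitor of mTOR, was 8.20, 8.39, 8.65 and 8.59. Redox genes had a median of -0.10 over 28 (-0.08 against nc), with AKR1C2 lowest and NQO1, a quinone reductase, at 11.84 with siControl, 11.87 with nc and 11.46 with siTET2. Glycolysis and hypoxia genes (0.03 over 30), ribosomal proteins (0.05 over 39) and small RNA processing genes (0.03 over 21) lay near the median of all genes, and so did housekeeping genes (-0.01 over 24), apart from TFRC, the transferrin receptor of growing cells, at 11.98 with siControl, 11.74 with nc and 11.30 with siTET2.

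The PI3K, AKT and mTOR list had a median of 0.04 over 35 (0.05 against nc). Its highest members were CASTOR1, an arginine sensor that inhibits mTORC1 (8.33 with siControl, 8.54 with nc, 7.88 with miR-29b and 8.91 with siTET2), and PIK3R3, a regulatory subunit of PI3K (10.86, 10.82, 10.25 and 11.37). Both were highest with siTET2 and lowest with miR-29b. Growth factor receptors and their regulators had a median of 0.13 over 12, led by IGF1R, and of 0.33 with a floor at the 75th percentile. ERBB3, a receptor of neuregulin, was 9.81 with siControl, 10.00 with nc and 10.14 with siTET2. Histone lysine demethylases had a median of 0.15 over 19 (0.17 against nc), with siTET2 the highest array in 11 (28.2% of all genes). KDM5B, which removes methyl groups from histone H3, was 10.04 with siControl, 10.32 with nc, 9.76 with miR-29b and 10.60 with siTET2.

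Interferon-stimulated genes were above siControl in 18 of the 22 that passed the floor, of 48 measured (53.1% of all genes), with a median of 0.21 (0.30 against nc and 0.48 for miR-29b against nc). IFI6, an interferon-induced mitochondrial protein, was 9.44 with siControl, 8.85 with nc, 10.02 with miR-29b and 9.94 with siTET2. SAMD9, an antiviral factor, was 7.13, 6.57, 7.14 and 7.69, and CD274 was 7.20, 7.01, 6.71 and 7.87. SAMD9, CD274 and CXCL10 passed the floor through siTET2 and not siControl, so their place above siControl was fixed by the floor. With no level floor the list median was 0.17. DTX3L, a ubiquitin ligase, was 9.16, 8.25, 9.38 and 8.64. The nc array was the lowest of the 4 in IFI6, SAMD9 and DTX3L.

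**Figure D5:**
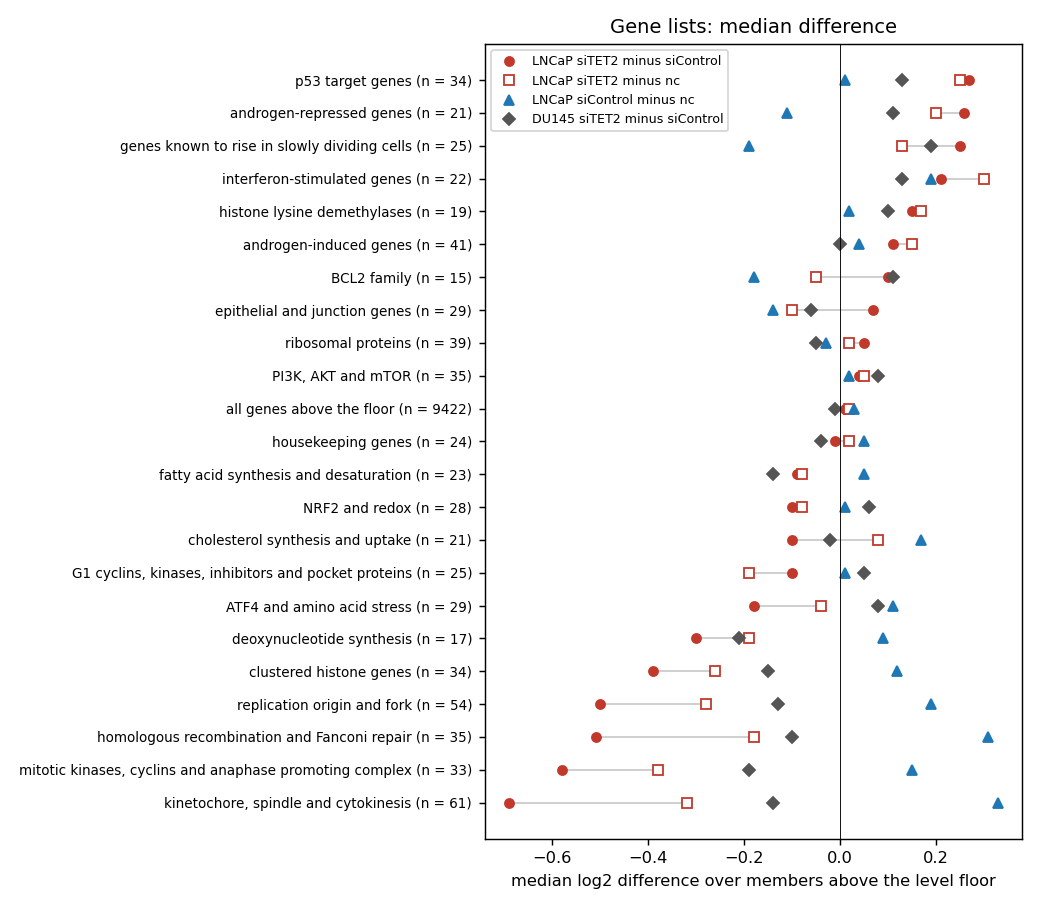
Median log2 difference over the members of each list that passed the LNCaP floor, for siTET2 minus siControl (filled circles), siTET2 minus nc (open squares) and siControl minus nc (triangles) in LNCaP, and for siTET2 minus siControl in DU145 (diamonds, members above both lines' floors). The first and second differences share the siTET2 array; the kinetochore and spindle list lies at -0.69 and -0.32, with siControl 0.33 above nc, and the p53 targets lie at 0.27 and 0.25.

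The DU145 arrays, which share none with LNCaP, were set beside these results. Of the 223 genes at least 1.5-fold lower in LNCaP, 200 also passed the DU145 floor, of which 32 were 1.5-fold lower there too, beside 1.59% of all DU145 genes, and 169 (84.5%) were below their siControl there, beside 53.1% of the 8300 genes above both floors. Their median in DU145 was -0.19. Of the 30 genes at least 1.5-fold below both LNCaP controls, 29 passed in DU145, with a median of -0.64. Of these 29, 28 were below 0, beside 53.1%, and 17 were at least 1.5-fold below siControl, beside 1.59%. The stricter rule of both controls, applied to DU145 alone, gave 1.1% of its genes below and 0.661% above. Of the 36 genes at least 1.5-fold higher, 17 passed in DU145 and 13 were above 0, beside 46.9%, with 2 at least 1.5-fold higher, beside 0.955%. Of the 8300 genes above both floors, 0 were past 1.5-fold in opposite directions in the lines, and 3 were past 2-fold the same way (TET2, METAP2 and SKAP2). At 2-fold, 0.0955% of LNCaP genes and 0.212% of DU145 genes were lower. At 1.5-fold, 0 of the 200 lower LNCaP genes were higher in DU145, beside 0.955%. In turn, 0 of the 17 higher ones were lower there, beside 1.59%. Shares this small leave few opposite genes to be found. SCD (-1.67 in DU145), PERP (-1.64), LHFPL2 (-0.64), PRR11 (-0.68), TMEM19 (-0.90), NFIA (-1.07) and SPAG5 (-1.06) were lower in both lines. Of the 17 genes at least 1.5-fold above both LNCaP controls, 8 passed in DU145, with a median of 0.42. Of these 8, 7 were above 0, beside 46.9%, and 0 were at least 1.5-fold higher, beside 0.955%. SNAI2 differed by 0.43 in DU145 and IGF1R by 0.47. AKR1C2, GRIN3A, CHRNA2 and TARP lay below the DU145 floor, and AHNAK2, at 10.63 with siControl and 10.64 with siTET2 in DU145, differed by 0.01 there.

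Cell division genes were lower in DU145 by less. Their medians there were -0.14 for kinetochore and spindle genes, with 53 of 61 below 0, -0.19 for mitotic kinases and partners, with 26 of 33, and -0.13 for origin and fork genes, with 43 of 54. Over the 8300 genes above both floors, 53.1% were below 0 in DU145 and the median was -0.01. PLK4 (0.09 in DU145) and CCNE2 (0.06), which were 1.5-fold lower in LNCaP, were close to siControl there, and the difference between the lines was not tested. The p53 targets had a median of 0.13 over 26, with 17 above 0, beside 46.9% of the genes above both floors. DU145 carries mutant p53, and a part of p53 in these values was not tested. The ATF4 list, at -0.18 in LNCaP, was at 0.08 over 28 in DU145, where SESN2 differed by 1.24.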

How the data were processed

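The deposited table holds log2 values, 33297 probe sets by 8 arrays. The authors made these log2 values, per the submitters' processing notes, with Affymetrix Expression Console and RMA, which corrects background, applies quantile normalization and summarises probes; versions, and which arrays were normalized together, are not given in the sources used here, and the table states no log base. Gene symbols came from the platform annotation, checked by Entrez identifier against RefSeq (19429 of 19460 probe sets matched, 0 symbols changed). Another 1754 probe sets had several symbols and were not named, and 12083 were not listed. A gene with several probe sets (769 genes) was represented by the one whose average across the 8 arrays was highest. Some genes are not analysed here.

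Differences were taken between single arrays with pandas 2.3.3 and numpy 2.4.6. The level floor was the 50th percentile over genes in at least 1 compared array. It admitted 426 genes through 1 array only, among them 10 of the 36 genes 1.5-fold higher and 29 of the 223 lower. The number of arrays, 1 per construct, limits the precision. The 36 gene lists, which share some genes, and the members were chosen with earlier results of these data known. Named genes are the TET genes, the 20 highest and 20 lowest protein-coding genes, the 15 farthest above and below both controls, up to 6 members per list with the largest difference, and genes 2-fold in both lines or opposite in them; others were chosen after their values were seen. Promoter sequences are from RefSeq (GRCh38.p14), using the first listed window of a gene for counts. The scripts were tested on simulated data.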

Additional observations from a re-analysis of the deposited data

How the results depend on the processing

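No paired analysis was possible because each construct was measured on 1 array and the labels give no shared replicate numbers. Leaving out a replicate could not be done for the same reason. A value was taken to have moved where it shifted by over 0.17 on the log2 scale (the spread between the control arrays over genes), and a count where it shifted by over 1.5 times. With nc in place of siControl the TET2 difference was -1.35, and 9 genes were 2-fold higher and 4 lower, beside 5 and 9. List medians then became -0.32 for kinetochore and spindle genes, -0.38 for mitotic kinases and -0.28 for origin and fork genes, and UGT2B17 reversed to 0.28. Against the mean of both controls, 2 genes were 2-fold lower and the kinetochore and spindle median was -0.49. Without a floor 15 genes were 2-fold lower and 29 lay 1.5-fold above both controls (17 with it). A floor at the 75th percentile gave 3 genes 2-fold higher and 10 above both controls, and a floor on the mean level gave 3 genes 2-fold higher. At 1.5-fold there were 36 genes higher and 223 lower, and at 2-fold 3 lay above both controls and 2 below (30 at 1.5-fold). Centring on the median gene and repeated quantile normalization moved none of the counts, the 31 list medians or the 52 genes so examined. Averaging the probe sets of a gene moved 2 of these genes and none of the counts or medians. What lies behind each shift was not tested. With 1 array per construct, a difference between dishes and a difference between constructs cannot be told apart.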
